A study of Mus musculus with 39 samples.

Results

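The tumor necrosis factor (TNF) superfamily was followed through the gubernaculum and testis of mice with altered INSL3. Its members were taken as every gene named Tnf, or with a name beginning in Tnfsf (a ligand) or Tnfrsf (a receptor), which gave 33 genes, 13 ligands and 20 receptors, of the 21561 Ensembl genes counted in all libraries. Membership was set by names only, and by no measured value. The family itself was chosen with earlier results of these data known.

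TNF superfamily ligands are trimeric membrane or secreted proteins that cluster their receptors on neighbouring cells. Receptors with an intracellular death domain, such as Tnfrsf1a, can start apoptosis through FADD and caspase-8, whereas most others recruit TRAF adaptors and activate NF-kB. Soluble and truncated receptors act as decoys. In the testis, TNF is known as a product of germ cells and macrophages that acts on receptors of Sertoli and Leydig cells, and RANK signaling is known from bone and mammary gland.

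INSL3 is the Leydig cell hormone that drives the gubernaculum, the ligament that draws the testis towards the scrotum. All mice were male and of C57BL/6J background. WT mice were compared with INSL3-KI homozygotes, in which minke whale INSL3 cDNA stands at the mouse locus under the mouse promoter after removal of the neo cassette by Cre, and with INSL3-KO mice. RNA-seq of whole tissue gave 39 libraries in 13 groups of 3 biological replicates. These were gubernaculum of WT, INSL3-KI and INSL3-KO at postnatal day (P) 8 and of WT and INSL3-KI at P23, and testis of the 3 genotypes at P8 and P23 and of WT and INSL3-KI at P40. Libraries held between 29861447 and 45260372 counts (median 36944626).

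The counts stand in 2 deposited tables. One holds WT and INSL3-KI except WT testis at P23, and the other holds INSL3-KO and WT testis at P23, so that in 6 of the comparisons below (INSL3-KO against WT at P8, INSL3-KI against WT in P23 testis, and INSL3-KI against INSL3-KO) genotype and table cannot be told apart. Mouse Insl3 itself had 2722 to 3524 counts per library in WT P8 testis and 15 to 33 in INSL3-KI, but 613 to 906 in the 3 P8 testis libraries labelled INSL3-KO, which goes against that label. In P23 testis it had 20844 to 25238 counts in WT, 52 to 84 in INSL3-KI and 0 to 5 in INSL3-KO, and in P40 testis 20183 to 29799 in WT and 443 to 511 in INSL3-KI. Muscle genes that mark the gubernaculum were abundant in its WT libraries, where 11 striated muscle genes summed to between 37740 and 43030 CPM at P8. The 3 INSL3-KI libraries of P23 gubernaculum lay apart from one another (mean r with their replicates 0.927, 0.873 and 0.896, in order). In testis, INSL3-KI replicate 2 at P8 (0.953), replicate 3 at P23 (0.941) and replicate 1 at P40 (0.942) stood apart from their groups.

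Across the 13 groups, between 26 and 33 of the 33 members were detected, meaning more than 3 counts in at least 1 library. Levels per transcript length were compared as the deposited FPKM (mean ± SD, n = 3). Tnfrsf1a, the widely expressed TNF receptor with a death domain, had the highest mean FPKM in every group except WT P8 gubernaculum, with 57.6 ± 4.26 in WT testis at P8, 9.37 ± 1.31 at P23 and 12.9 ± 2.48 at P40. In WT P8 gubernaculum Tnfrsf1a stood at 40.5 ± 3.08, below Tnfrsf12a (Fn14), the receptor of the ligand TWEAK, at 70.4 ± 11.7. Next came Tnfsf12 (TWEAK) at 14.1 ± 2.64 and Tnfrsf19 at 13.1 ± 1.72, whose levels overlapped. In normalized CPM (counts scaled to library size by TMM, on 1 scale over all 39 libraries), in the order of replicates 1 to 3, Tnfsf12 had 28.9, 21.4 and 22.0 in WT P8 gubernaculum, 23.2, 21.7 and 29.2 in WT P23 gubernaculum and 12.8, 14.6 and 19.7 in WT P8 testis. By mean FPKM, WT testis held a different second receptor at the later ages. At P8 it was Tnfrsf12a with 46.5 ± 14.4 FPKM, and at P23 and P40 it was Tnfrsf13c, the BAFF receptor known from B cells, with 2.48 ± 0.203 and 3.64 ± 0.156 FPKM. Tnfrsf21 (DR6), a receptor with a death domain, was the third there, with 2.30 ± 0.293 and 2.50 ± 1.24 FPKM. The ranges of mean ± SD of Tnfrsf13c and Tnfrsf21 overlapped at both ages. At P40 that of Tnfrsf12a (2.12 ± 2.19 FPKM) overlapped both, so this order is not settled.

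**Figure D1:**
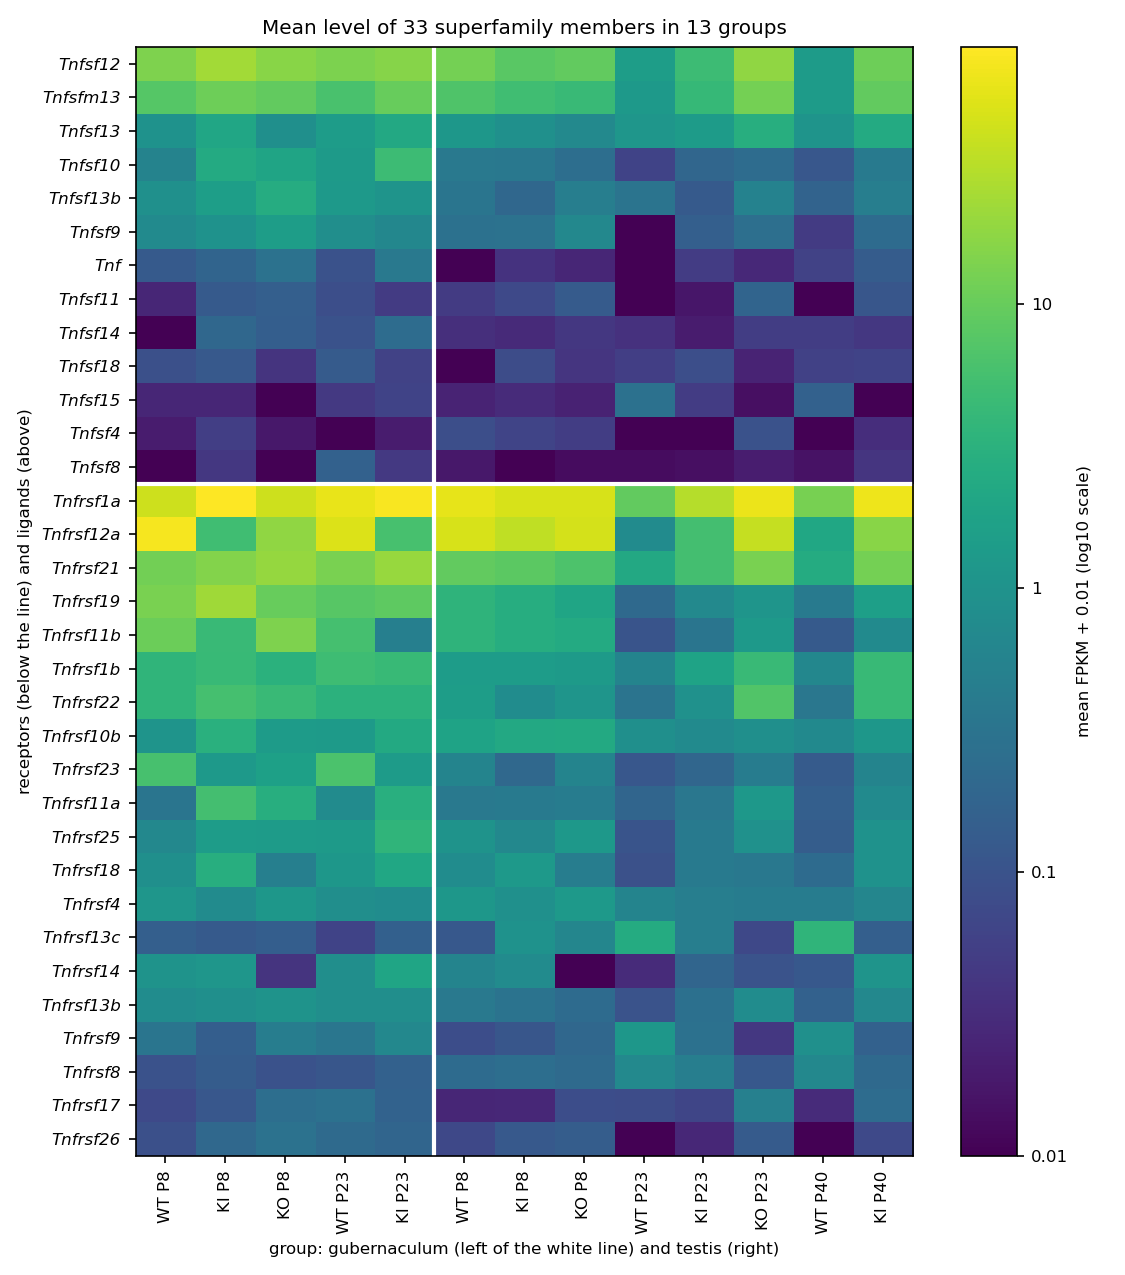
Mean FPKM (color, log10 scale after adding 0.01) of the 13 ligands and 20 receptors (rows) in 13 groups of 3 libraries (columns). Tnfrsf1a is bright in all groups, Tnfrsf12a loses level in INSL3-KI gubernaculum and in WT testis at P23 and P40, and most ligands besides Tnfsf12 and its read-through Tnfsfm13 stay dark.

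Most ligands were scarce. Tnf, the founding cytokine, never exceeded 44 counts in a library, and in testis it was too low to be tested between genotypes. Its normalized CPM was 0 in each WT testis library at P8 and P23, 0, 0.0497 and 0.0627 in INSL3-KI and 0.0390, 0 and 0.0438 in libraries labelled INSL3-KO at P8, and 0.109, 0 and 0.130 in INSL3-KI and 0, 0.0467 and 0.0727 in INSL3-KO at P23. These are at most 5 counts per library. In WT gubernaculum it was 0.452, 0.156 and 0.132 at P8 and 0, 0.130 and 0.412 at P23. INSL3-KI gubernaculum had 0.267, 0.356 and 0.182 at P8 and 0.339, 1.39 and 0.272 at P23. INSL3-KO gubernaculum had 0.322, 0.669 and 0.570 at P8. In P40 testis the values were 0.0829, 0.0750 and 0.224 in WT and 0.223, 0.0728 and 0.333 in INSL3-KI. INSL3-KO gubernaculum lay highest at P8, and the groups overlapped in every tested comparison of Tnf. No library held more than 22 counts of Tnfsf18 or Tnfrsf17, 21 of Tnfsf4, 25 of Tnfsf14, 31 of Tnfsf8 or 36 of Tnfsf11, the RANK ligand. Tnfsf4 was too low for a test in every comparison, and Tnf, Tnfrsf4, Tnfrsf17, Tnfrsf26, Tnfsf9, Tnfsf11, Tnfsf13, Tnfsf14 and Tnfsf18 were tested in at least 1 and called in none.

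Several members lie side by side, in the GRCm38 annotation: Tnfrsf26, Tnfrsf22 and Tnfrsf23, mouse TRAIL receptors or their relatives without a death domain, are neighbours on chromosome 7, with 6.1 and 16.1 kb between them, Tnfrsf4 and Tnfrsf18 lie 9.6 kb apart and Tnfrsf1b and Tnfrsf8 20.3 kb apart on chromosome 4. Tnfsfm13 is a read-through transcript over Tnfsf12 and Tnfsf13 on chromosome 11, so the counts of these 3 share sequence and are uncertain. The Tnfrsf22 cluster and Tnfrsf9, Tnfrsf13b, Tnfrsf18, Tnfrsf19, Tnfsf9, Tnfsf13b, Tnfsf12, Tnfsf13 and Tnfsfm13 have antisense partners, and whether counting used strand is not given in the sources used here. The lengths implied by counts and FPKM differed between tables for Tnfsf13b (ratio 0.259), Tnfrsf22 (0.794) and Tnfrsf19 (1.199), and lay between 0.915 and 1.11 for the other members.

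In P8 gubernaculum of INSL3-KI, 3 members were called higher and 2 lower of the 26 tested, 19.2% against 24.1% of all genes tested, 14.4% higher and 9.7% lower. A gene was called in edgeR's quasi-likelihood test where its fold change reached 2 and its Benjamini-Hochberg adjusted p stayed below 0.01. In bulk tissue, fewer cells of a type and less RNA per cell cannot be told apart. The median log2 fold change of the tested members was 0.19, against 0.023 over all genes tested. Tnfrsf12a showed the largest change among them. It had 91.0, 86.6 and 68.4 CPM in the WT libraries, 5.76, 4.39 and 3.92 in INSL3-KI and 20.3, 18.2 and 17.6 in INSL3-KO. The 3 groups did not overlap, with INSL3-KO between the others. The level was 17.2-fold lower in INSL3-KI (log2 fold change -4.11, SE 0.19, edgeR adjusted p = 1.49e-06) and 4.40-fold below WT in INSL3-KO (log2 fold change -2.14, SE 0.13, edgeR adjusted p = 1.20e-05). Compared directly, INSL3-KI stood below INSL3-KO (log2 fold change -2.01, SE 0.17, edgeR adjusted p = 7.81e-05).

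Tnfrsf11a (RANK), the receptor for the RANK ligand, changed the other way. It had 1.61, 1.81 and 2.37 CPM in WT, 22.8, 30.9 and 24.3 in INSL3-KI and 11.9, 14.9 and 14.7 in INSL3-KO. Every mutant library lay above every WT library. The level was 13.7-fold higher in INSL3-KI (log2 fold change 3.77, SE 0.21, edgeR adjusted p = 4.04e-06) and 7.14-fold higher in INSL3-KO (log2 fold change 2.84, SE 0.20, edgeR adjusted p = 2.29e-05). Its ligand Tnfsf11 had 0, 0 and 0.132 CPM in WT, 0.320, 0.297 and 0.152 in INSL3-KI and 0, 0.623 and 0.427 in INSL3-KO, with overlap between INSL3-KO and WT. Tnfrsf11b (osteoprotegerin), the soluble decoy receptor for the same ligand, had 25.9, 39.6 and 42.6 CPM in WT, 17.2, 4.72 and 12.6 in INSL3-KI and 42.6, 42.3 and 42.5 in INSL3-KO. INSL3-KI stood below INSL3-KO for this gene (log2 fold change -1.89, SE 0.41, edgeR adjusted p = 0.00539). Against WT, the gene was not called in INSL3-KI (log2 fold change -1.63, SE 0.41, edgeR adjusted p = 0.0106) or in INSL3-KO (log2 fold change 0.23, SE 0.17, edgeR adjusted p = 0.261).

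The promoters of these 2 receptors are shown because they mark the members with opposite changes in the gubernaculum. RefSeq sequences (GRCm38.p6, 250 bases before to 50 after the gene start, on the gene's strand) matched 26 members with 30 promoters. They were searched on both strands for TGACG, the core of the cAMP response element, and for a kappa B motif, GGG and TTTCC with any 2 bases between them. Capitals mark a match.
Tnfrsf12a (chr17:23677400-23677699, minus strand): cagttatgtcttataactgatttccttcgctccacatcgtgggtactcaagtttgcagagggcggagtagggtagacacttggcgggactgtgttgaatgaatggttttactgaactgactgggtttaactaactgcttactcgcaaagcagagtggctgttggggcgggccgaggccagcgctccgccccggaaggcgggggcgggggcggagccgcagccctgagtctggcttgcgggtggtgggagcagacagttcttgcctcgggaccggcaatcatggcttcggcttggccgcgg
Tnfrsf11a (chr1:105780473-105780772, plus strand): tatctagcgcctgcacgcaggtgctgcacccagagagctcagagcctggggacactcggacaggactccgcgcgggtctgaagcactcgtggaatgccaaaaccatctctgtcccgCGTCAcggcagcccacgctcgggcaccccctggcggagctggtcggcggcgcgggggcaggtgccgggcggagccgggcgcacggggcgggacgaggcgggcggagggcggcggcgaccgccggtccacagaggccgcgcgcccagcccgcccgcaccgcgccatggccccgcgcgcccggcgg
TGACG was found in 4 member promoters (Tnfrsf11a, Tnfrsf23, Tnfrsf25 and Tnfsf10) and in 20.8% of 32851 promoters. The Tnfrsf11a match, on the opposite strand, begins 134 bases before the gene start. The Tnfrsf12a window holds neither motif.

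Among the genes of TRAIL and its receptors, Tnfsf10 and Tnfrsf23 were called in both mutants in P8 gubernaculum. Tnfsf10 (TRAIL), a ligand that can trigger apoptosis, had 1.90, 4.33 and 3.66 CPM in WT, 13.02, 12.7 and 8.62 in INSL3-KI and 9.60, 9.30 and 11.5 in INSL3-KO. The mutants lay above WT without overlap (INSL3-KI log2 fold change 1.81, SE 0.32, edgeR adjusted p = 0.00179, INSL3-KO log2 fold change 1.61, SE 0.30, edgeR adjusted p = 0.00244). Tnfrsf10b, the mouse TRAIL receptor with a death domain, had 3.84, 4.46 and 3.62 CPM in WT, 10.4, 7.89 and 8.38 in INSL3-KI and 4.75, 5.17 and 4.56 in INSL3-KO. It was called higher in INSL3-KI (log2 fold change 1.18, SE 0.20, edgeR adjusted p = 0.00148), and its fold change in INSL3-KO was not called (log2 fold change 0.28, SE 0.18, edgeR adjusted p = 0.216). Tnfrsf23, a TRAIL decoy receptor, had 19.5, 21.0 and 19.9 CPM in WT, 5.10, 2.11 and 4.40 in INSL3-KI and 5.37, 6.09 and 5.93 in INSL3-KO. Both mutants lay below WT (INSL3-KI log2 fold change -2.36, SE 0.30, edgeR adjusted p = 0.000291, INSL3-KO log2 fold change -1.80, SE 0.11, edgeR adjusted p = 1.35e-05). Its neighbour Tnfrsf22 had 11.6, 11.6 and 11.2 CPM in WT, 16.9, 13.2 and 14.4 in INSL3-KI and 8.48, 10.3 and 9.14 in INSL3-KO and was called in neither.

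**Figure D2:**
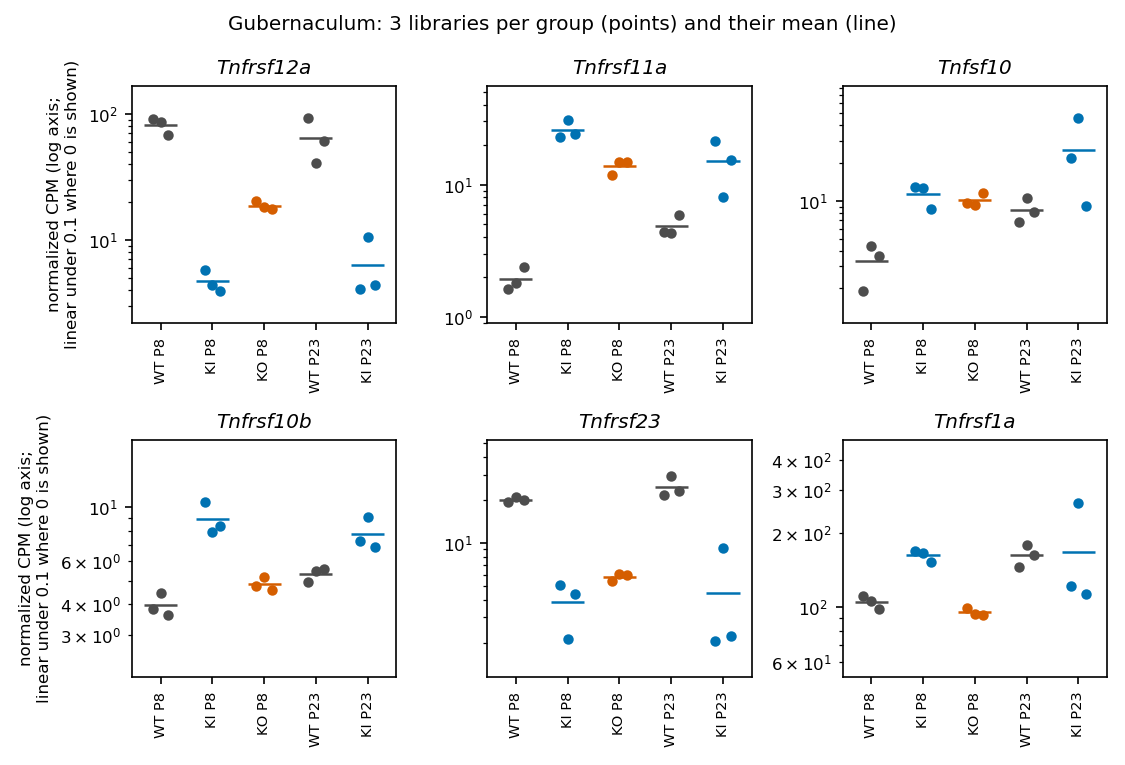
Normalized CPM (log axis) of 6 members in gubernaculum, with 1 point per library and a line at the mean of 3, for WT (grey), INSL3-KI (blue) and INSL3-KO (orange). Tnfrsf12a and Tnfrsf23 are lower and Tnfrsf11a and Tnfsf10 higher in both mutants at P8, whereas Tnfrsf1a differs by less than 2-fold.

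In INSL3-KO, 2 members were called higher and 3 lower of the 26 tested, 19.2% against 30.7% of all genes tested, 15.5% higher and 15.2% lower, and their median log2 fold change was -0.063 (all genes 0.035). Besides those above, Tnfrsf14 was called lower, a member with few counts throughout the table that holds INSL3-KO, which is taken up below. Both TNF receptors stayed within 2-fold of WT. Tnfrsf1a had 111, 106 and 98.1 CPM in WT, 169.8, 166 and 152 in INSL3-KI and 99.0, 94.1 and 93.3 in INSL3-KO. All 3 INSL3-KI libraries lay above WT (log2 fold change 0.65, SE 0.0939, edgeR adjusted p = 0.00063), under the fold threshold, and INSL3-KO overlapped WT. Tnfrsf1b, the TNF receptor without a death domain, had 12.8, 17.3 and 18.8 CPM in WT, 14.9, 14.4 and 17.4 in INSL3-KI and 13.1, 12.3 and 13.3 in INSL3-KO, and all groups overlapped with WT.

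INSL3-KI and INSL3-KO differed directly in 6 of 27 tested members in P8 gubernaculum (3 higher and 3 lower in INSL3-KI), 22.2% against 22.5% of all genes tested, 11.9% higher and 10.5% lower. The count fell to 3 without INSL3-KO replicate 2. Beside Tnfrsf12a and Tnfrsf11b, Tnfrsf9, a costimulatory receptor of T cells, was lower in INSL3-KI (log2 fold change -1.82, SE 0.40, edgeR adjusted p = 0.00623). Tnfrsf18 (GITR), another receptor of T cells, had 2.72, 4.06 and 2.55 CPM in INSL3-KI and 0.805, 0.761 and 0.332 in INSL3-KO without overlap (log2 fold change 2.28, SE 0.40, edgeR adjusted p = 0.00219). Tnfrsf14 and Tnfsf13b were also called higher in INSL3-KI, the latter with a different implied length in each table.

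Marker lists moved with these results, and their part in them was not tested. Among 6 peritubular myoid and smooth muscle genes, 5 were called higher and 1 lower in both mutants. Their summed levels were 16510 to 20920 CPM in INSL3-KI, 7723 to 8303 in INSL3-KO and 3382 to 3807 in WT. Of 11 striated muscle genes, 10 were called lower in INSL3-KI and 9 in INSL3-KO, with summed levels of 779 to 1326 and 7178 to 7754 CPM against 37740 to 43030 in WT. All 6 adipocyte genes were called higher in both mutants (784 to 1047 CPM in INSL3-KI, 1971 to 2206 in INSL3-KO and 92.8 to 106.6 in WT). Of 7 epithelial genes, 6 were called higher in both (920 to 1115, 553 to 604 and 23.4 to 68.2 CPM in the same order). Epididymal genes summed to 656 to 1659 CPM in INSL3-KI and 1067 to 1203 in INSL3-KO, and to at most 0.0988 in WT. Of 12 macrophage genes, 5 were called lower in INSL3-KI (265 to 307 CPM against 457 to 848) and 1 in INSL3-KO. The T and NK cell list summed to 7.77 to 9.37 CPM in INSL3-KI, 8.075 to 9.52 in INSL3-KO and 2.52 to 2.90 in WT. Between INSL3-KI and INSL3-KO, 1 of its 8 tested genes was called, higher in INSL3-KI.

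At P23 no member was called between INSL3-KI and WT gubernaculum of 27 tested with edgeR, against 2.57% of all genes tested, 0.212% higher and 2.35% lower. At an unadjusted p under 0.05 there were 5 members, beside 5063 of the 15082 genes tested. DESeq2 called 4 members (1 higher, 3 lower), and the share of all genes it called is not given here. Tnfrsf12a had 92.7, 40.8 and 61.5 CPM in WT and 4.03, 10.5 and 4.38 in INSL3-KI, without overlap (log2 fold change -3.39, SE 0.52, edgeR adjusted p = 0.0153). Tnfrsf11b had 7.83, 29.7 and 21.0 CPM in WT and 0.367, 1.81 and 1.95 in INSL3-KI, again without overlap (log2 fold change -3.84, SE 0.80, edgeR adjusted p = 0.0327). Without INSL3-KI replicate 2, which had the lowest mean r of its group, 2 members were called lower. The effect of INSL3-KI differed between P23 and P8 in 0 of 30 tested members by edgeR's interaction test (0.281% of all genes, 0.0874% upwards and 0.194% downwards, 7 members at an unadjusted p under 0.05, and 1 called by DESeq2).

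Tnf had the values given above at P23, with INSL3-KI replicate 2 highest. Tnfrsf1a had 146, 179.8 and 164 CPM in WT and 122, 267 and 114 in INSL3-KI, with overlap. Tnfrsf1b had 18.9, 31.7 and 21.4 in WT and 15.5, 23.7 and 13.2 in INSL3-KI, also with overlap. The summed striated muscle level was 68830 to 123300 CPM in WT and 20.6 to 960.0 in INSL3-KI at this age, with 9 of 11 genes called lower. No gene of the other cell type lists was called, but the INSL3-KI libraries lay far apart, at 493 to 14980 CPM for adipocyte genes (120 to 157 in WT), 2.79 to 1804 for epithelial genes (62.4 to 248.7), 1.11 to 7096 for epididymal genes (0 to 1057) and 1899 to 14990 for peritubular myoid and smooth muscle genes (6138 to 8717). The part of these in the members' values was not tested.

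Within WT mice, P23 and P8 gubernaculum differed in 1 of 25 tested members, 4% against 10.5% of all genes tested, 6.17% higher and 4.34% lower. It was Tnfsf8 (CD30 ligand), with 0.722, 1.00 and 0.571 CPM at P23 and no count at P8, at least 7.95-fold higher at P23 (floor of 3 counts per library, counting error only). The edgeR adjusted p was 0.00727, and the call was lost without any 1 of the 6 libraries. WT gubernaculum and testis at P8 differed in 6 of 23 tested members, all receptors and all higher in gubernaculum, 26.1% against 28.4% of all genes tested, 14.1% higher and 14.3% lower. Tnfrsf23 had 19.5, 21.0 and 19.9 CPM in gubernaculum and 0.999, 1.33 and 2.36 in testis (log2 fold change 3.70, SE 0.32, edgeR adjusted p = 7.89e-05), and Tnfrsf19, also called TROY, had 69.6, 62.6 and 54.98 in gubernaculum and 7.65, 11.8 and 16.8 in testis (log2 fold change 2.39, SE 0.27, edgeR adjusted p = 0.000291). For Tnfrsf11b the levels were 25.9, 39.6 and 42.6 CPM in gubernaculum and 6.84, 8.37 and 11.2 in testis (log2 fold change 2.05, SE 0.25, edgeR adjusted p = 0.000397), and for Tnfrsf1b 12.8, 17.3 and 18.8 in gubernaculum and 3.38, 3.79 and 7.56 in testis (log2 fold change 1.75, SE 0.34, edgeR adjusted p = 0.00346). None of the 4 overlapped between the tissues, and Tnfrsf22 and Tnfrsf12a were called with smaller log2 fold changes (1.48 and 1.05). Tnfrsf1a had 111, 106 and 98.1 CPM in gubernaculum and 103, 108 and 121 in testis, with overlap.

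WT testis changed in 12 of 24 tested members between P8 and P40, with 4 higher and 8 lower at P40, 50% against 59.7% of all genes tested, 31.9% higher and 27.8% lower. The count was 8 to 12 when 1 library was left out. Tnfrsf13c went from 0.0974, 0.243 and 0.227 CPM at P8 to 6.59, 8.03 and 8.32 at P40 (log2 fold change 5.29, SE 0.38, edgeR adjusted p = 6.23e-06), and Tnfsf15, Tnfrsf9 and Tnfrsf8 (CD30) were also higher at P40. The decoy receptor Tnfrsf11b went from 6.84, 8.37 and 11.2 to 0.373, 0.375 and 0.704 CPM (log2 fold change -4.16, SE 0.37, edgeR adjusted p = 2.02e-05). Tnfrsf12a went from 53.3, 36.7 and 30.5 to 1.74, 0.825 and 6.34 CPM (log2 fold change -3.73, SE 0.65, edgeR adjusted p = 0.001), and neither receptor overlapped between the ages. Also lower at P40 were Tnfrsf1a (log2 fold change -1.47, SE 0.13, edgeR adjusted p = 2.12e-05), Tnfrsf19, Tnfrsf21, Tnfrsf25, Tnfsf12 and its read-through. Tnfsf15 (TL1A), the ligand of Tnfrsf25, moved opposite to its receptor, from 0, 0 and 0.136 to 0.912, 0.638 and 0.736 CPM (log2 fold change 3.94, SE 1.02, edgeR adjusted p = 0.00762), while Tnfrsf25 went from 1.29, 1.86 and 1.29 to 0.249, 0.225 and 0.512 (log2 fold change -2.15, SE 0.47, edgeR adjusted p = 0.00331). Of the cell type lists, all 9 spermatid and all 9 spermatocyte genes were called higher at P40, and of 15 Sertoli genes 11 were lower and 1 higher, and their part in these changes was not tested.

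The 4 members that were called higher in older WT testis were called lower in P23 INSL3-KO and P40 INSL3-KI testis, and 3 of them in P23 INSL3-KI. Of all genes tested, 33.4%, 22.1% and 11.8% were called lower in these comparisons, in the same order. How many of those were also higher in older WT testis is not given here. The WT P40 libraries serve both the comparison of ages and that of P40 INSL3-KI, so a reversal between them is not independent. At P23, Tnfrsf13c had 7.42, 7.67 and 8.57 CPM in WT, 0.954, 1.57 and 0.443 in INSL3-KI and 0.108, 0.0933 and 0.194 in INSL3-KO. The 3 groups did not overlap. It was 8.06-fold lower in INSL3-KI (log2 fold change -3.01, SE 0.43, edgeR adjusted p = 0.00302) and 58.4-fold below WT in INSL3-KO (log2 fold change -5.87, SE 0.29, edgeR adjusted p = 1.81e-08). At P40 it had 6.59, 8.03 and 8.32 CPM in WT and 0.173, 0.437 and 0.190 in INSL3-KI (log2 fold change -4.79, SE 0.39, edgeR adjusted p = 0.000301).

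Tnfsf15 had 1.94, 1.18 and 1.43 CPM in WT P23 testis, 0.273, 0.116 and 0.104 in INSL3-KI and 0, 0 and 0.0485 in INSL3-KO, without overlap. It was lower in INSL3-KI (log2 fold change -3.19, SE 0.48, edgeR adjusted p = 0.00351) and stood at least 20.4-fold below WT in INSL3-KO (adjusted p = 2.28e-05 by edgeR). In P40 testis it had 0.912, 0.638 and 0.736 CPM in WT and no count in INSL3-KI, at least 10.5-fold lower (edgeR adjusted p = 0.00133).

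Tnfrsf9 had 1.67, 2.60 and 1.83 CPM in WT P23 testis, 0.245, 0.407 and 0.365 in INSL3-KI and 0.135, 0.117 and 0 in INSL3-KO. Both mutants lay below WT (INSL3-KI log2 fold change -2.57, SE 0.38, edgeR adjusted p = 0.00331, INSL3-KO log2 fold change -4.56, SE 0.65, edgeR adjusted p = 8.31e-05). At P40 it had 1.91, 1.12 and 1.02 in WT and 0.372, 0.121 and 0.238 in INSL3-KI (log2 fold change -2.42, SE 0.50, edgeR adjusted p = 0.00506), a call kept in the fit without INSL3-KI replicate 1 and lost without any other library. Tnfrsf8 had 4.24, 2.95 and 4.18 CPM in WT P23 testis, 1.55, 2.38 and 1.41 in INSL3-KI and 0.458, 0.350 and 0.363 in INSL3-KO. It was called lower in INSL3-KO (log2 fold change -3.28, SE 0.31, edgeR adjusted p = 3.50e-06), was not called in P23 INSL3-KI (log2 fold change -1.09, SE 0.31, edgeR adjusted p = 0.0248) and was called lower, with 3.98, 2.81 and 2.98 against 0.719, 0.558 and 0.738 CPM, in P40 INSL3-KI (log2 fold change -2.24, SE 0.27, edgeR adjusted p = 0.000671).

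Tnfrsf13c, Tnfrsf9 and Tnfsf15 were called lower in all 3 of these comparisons. The promoters of Tnfrsf13c and Tnfrsf9, which lie on different chromosomes, are shown as examples. Tnfsf15 lies on chromosome 4, as Tnfrsf9 does, and is not shown.
Tnfrsf13c (chr15:82224331-82224630, minus strand): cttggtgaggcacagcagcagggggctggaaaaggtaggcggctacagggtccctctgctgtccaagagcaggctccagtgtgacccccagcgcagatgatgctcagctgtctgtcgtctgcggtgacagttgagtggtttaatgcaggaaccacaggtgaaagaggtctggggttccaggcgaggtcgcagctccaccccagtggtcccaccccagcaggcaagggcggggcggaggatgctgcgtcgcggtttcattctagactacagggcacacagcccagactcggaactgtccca
Tnfrsf9 (chr4:150927749-150928048, plus strand): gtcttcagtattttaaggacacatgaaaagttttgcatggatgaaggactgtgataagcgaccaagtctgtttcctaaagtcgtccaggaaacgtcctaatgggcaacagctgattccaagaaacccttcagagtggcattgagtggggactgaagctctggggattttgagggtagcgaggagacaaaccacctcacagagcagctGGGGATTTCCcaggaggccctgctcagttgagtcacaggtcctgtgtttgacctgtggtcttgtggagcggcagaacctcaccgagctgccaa
The kappa B motif was found in 2 member promoters, those of Tnfrsf9 and Tnfrsf25, and in 1.63% of all 32851 promoters. The Tnfrsf9 match, in the window of 1 of its 2 gene starts, begins 43 bases before that start, and the window of the other start holds neither motif. The Tnfrsf13c and Tnfsf15 windows hold neither motif.

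**Figure D3:**
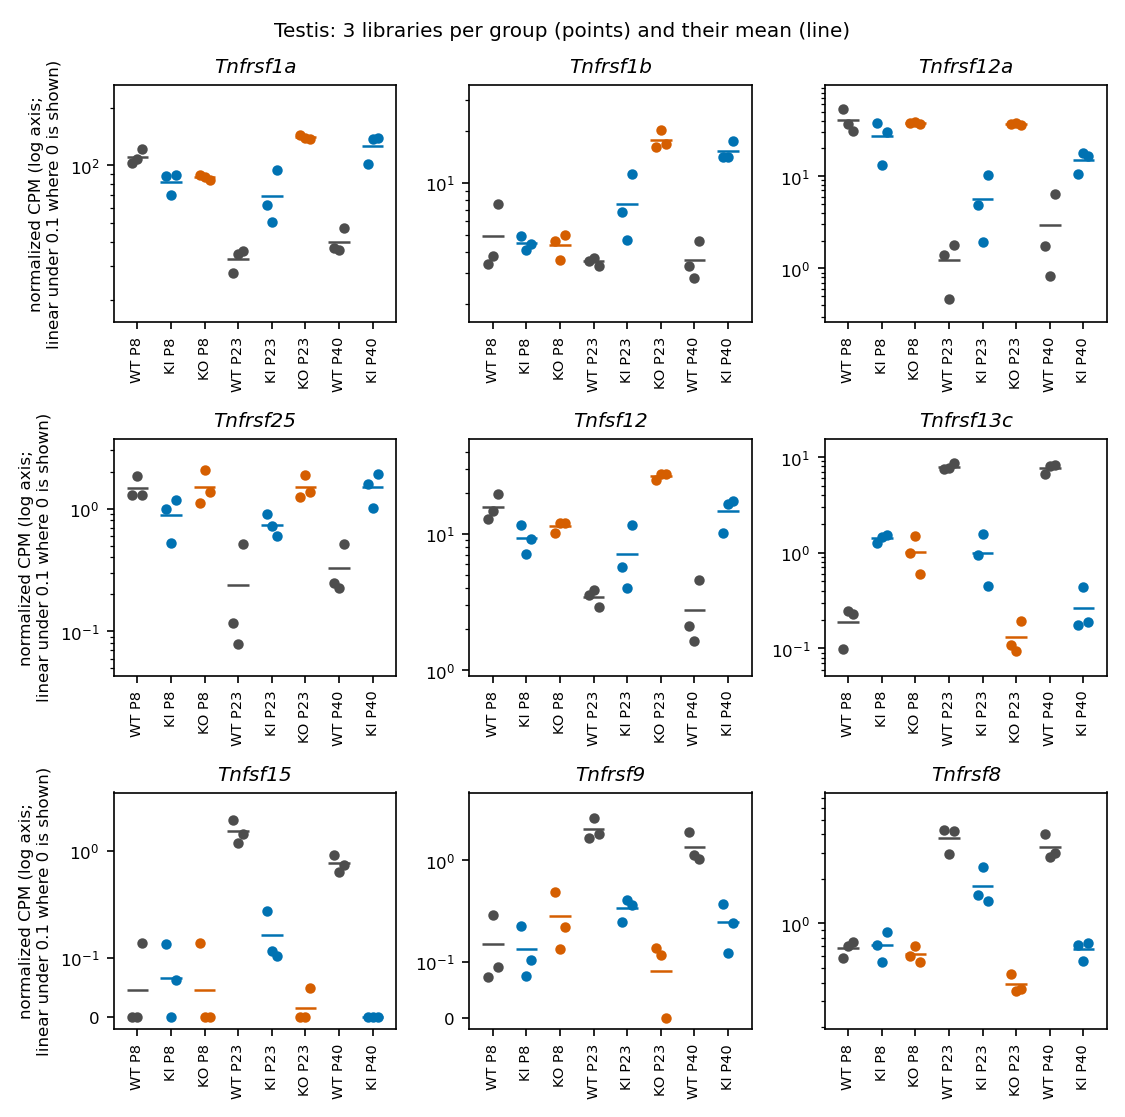
Normalized CPM of 9 members in testis (log axis, linear under 0.1 where a library is at 0), with 1 point per library and a line at the mean of 3, for WT (grey), INSL3-KI (blue) and INSL3-KO (orange). Tnfrsf13c, Tnfsf15, Tnfrsf9 and Tnfrsf8 are highest in WT at P23 and P40, and Tnfrsf1a, Tnfrsf1b, Tnfrsf12a, Tnfrsf25 and Tnfsf12 are higher in P23 INSL3-KO and P40 INSL3-KI than in WT on this TMM scale (Tnfrsf12a at P40 without a call), whereas scaling on Sertoli genes turns Tnfrsf1a and Tnfrsf1b in both and Tnfrsf25 at P40.

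All other calls in P23 INSL3-KO testis were towards higher levels. Of 23 tested members, 12 were called higher and 4 lower, 69.6% against 64.4% of all genes tested, 31.1% higher and 33.4% lower. With the libraries scaled on 15 Sertoli cell genes instead of TMM, 2 were higher and 8 lower. The shares are for TMM, and that of all genes under the Sertoli scaling is not given here, so these 2 counts have no background. The median of the tested members was 1.80 on the log2 scale with TMM. The Sertoli scaling brings the median over all genes, 0.056 with TMM, to -2.58. Tnfrsf12a had 1.40, 0.472 and 1.79 CPM in WT, 4.82, 1.95 and 10.3 in INSL3-KI and 36.9, 37.9 and 36.0 in INSL3-KO. It was 30.0-fold higher in INSL3-KO (log2 fold change 4.91, SE 0.27, edgeR adjusted p = 3.81e-08) and was called higher under both scalings, as was Tnfrsf22. Tnfrsf22 had 1.13, 0.708 and 1.75 CPM in WT, 2.34, 1.802 and 6.99 in INSL3-KI and 18.1, 16.7 and 18.4 in INSL3-KO (log2 fold change 3.88, SE 0.24, edgeR adjusted p = 1.11e-07).

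Tnfsf12, the ligand of Tnfrsf12a, had 3.57, 3.89 and 2.91 CPM in WT, 5.75, 4.04 and 11.6 in INSL3-KI and 24.6, 27.5 and 27.3 in INSL3-KO (log2 fold change 2.93, SE 0.13, edgeR adjusted p = 8.50e-09), and 0.30 with the Sertoli scaling. Its read-through Tnfsfm13 had 2.99, 4.68 and 4.66 CPM in WT, 5.40, 7.12 and 14.5 in INSL3-KI and 24.1, 24.9 and 24.7 in INSL3-KO (log2 fold change 2.57, SE 0.16, edgeR adjusted p = 1.25e-07), and -0.056 with the Sertoli scaling. In both, INSL3-KO lay above all other P23 libraries.

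Among the TNF receptors, Tnfrsf1a had 27.5, 34.6 and 35.8 CPM in WT, 62.4, 50.7 and 94.2 in INSL3-KI and 145, 138 and 137 in INSL3-KO. The groups did not overlap (INSL3-KO log2 fold change 2.10, SE 0.0937, edgeR adjusted p = 7.69e-09), and the value was -0.53 with the Sertoli scaling. Tnfrsf1b had 3.54, 3.70 and 3.31 CPM in WT, 6.81, 4.65 and 11.2 in INSL3-KI and 16.2, 20.3 and 16.9 in INSL3-KO (INSL3-KO log2 fold change 2.33, SE 0.14, edgeR adjusted p = 8.53e-08), and -0.30 with the Sertoli scaling. In INSL3-KI the log2 fold changes of Tnfrsf1a and Tnfrsf1b, 1.09 ± 0.27 and 1.11 ± 0.36 (± SE), missed the threshold (edgeR adjusted p = 0.0159 and 0.039) and were -0.16 and -0.18 with the Sertoli scaling.

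Tnfrsf11b had 0.233, 0.551 and 0.518 CPM in WT, 0.600, 0.988 and 1.35 in INSL3-KI and 2.24, 4.36 and 4.41 in INSL3-KO (log2 fold change 3.07, SE 0.41, edgeR adjusted p = 5.27e-05). Tnfrsf25, the receptor of Tnfsf15, had 0.117, 0.0787 and 0.518 CPM in WT, 0.899, 0.727 and 0.600 in INSL3-KI and 1.24, 1.89 and 1.36 in INSL3-KO (log2 fold change 2.64, SE 0.60, edgeR adjusted p = 0.00203), a call lost without WT replicate 1 or 2, and a log2 fold change of 3.88 without WT replicate 3. Tnfrsf13b (TACI), a receptor of the ligands BAFF and APRIL, had 0.622, 0.0787 and 0.438 CPM in WT, 0.463, 0.523 and 1.25 in INSL3-KI and 2.29, 2.59 and 1.53 in INSL3-KO (log2 fold change 2.47, SE 0.53, edgeR adjusted p = 0.00146). For these 3, INSL3-KO lay above WT without overlap, and the Sertoli scaling gave 0.45, 0.019 and -0.16. Tnfrsf21, Tnfrsf11a and Tnfrsf19 were also called higher, by 1.87, 1.80 and 1.75 on the log2 scale, and reversed to -0.77, -0.83 and -0.87 with the Sertoli scaling.

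INSL3-KI testis at P23 had 0 calls higher and 3 lower (Tnfrsf13c, Tnfsf15 and Tnfrsf9) of 23 tested members, 13% against 20.6% of all genes tested, 8.81% higher and 11.8% lower. None was called without any 1 of the WT replicates or without INSL3-KI replicate 1, and 3 were without INSL3-KI replicate 3, which stood apart. DESeq2 called 2 higher and 4 lower, and 1 fit over all testis groups called 6 higher and 3 lower. The shares of all genes called in these other fits are not given here, so their counts have no background. Compared directly at P23, INSL3-KI and INSL3-KO differed in 6 of 22 tested members (2 higher and 4 lower in INSL3-KI), 27.3% against 38.2% of all genes tested, 25.2% higher and 13% lower. The 4 with the largest fold were Tnfrsf13c (2.92), Tnfrsf12a (-2.63), Tnfrsf8 (2.23) and Tnfrsf22 (-2.19, log2 fold changes). None was called without INSL3-KI replicate 1 or any 1 of the INSL3-KO replicates, 1 was called without INSL3-KI replicate 2, and 13 without INSL3-KI replicate 3. In this comparison all 9 spermatocyte (2680 to 5474 against 231 to 245 CPM) and all 9 spermatid genes were called higher in INSL3-KI, and 10 of 12 macrophage genes (285 to 482 against 1263 to 1326 CPM) and 7 of 15 Sertoli genes lower. Of 8 Leydig genes, 6 were lower and 1, Insl3 itself, higher (386 to 593 against 1937 to 1996 CPM). The part of these lists in the members' differences was not tested.

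By P40, INSL3-KI testis had 11 members higher and 4 lower of 24 tested with TMM, 62.5% against 47.7% of all genes tested, 25.6% higher and 22.1% lower. With the Sertoli scaling 0 were higher and 8 lower, without a share of all genes to set beside them. Under that scaling the median of all genes is at -2.22 in place of 0.093. The median of the tested members was 1.51 with TMM. Without WT replicate 1 or 2 the TMM counts were 6 higher and 3 lower, without INSL3-KI replicate 2 or 3 they were 7 and 3, and without INSL3-KI replicate 1 they were 13 and 4. Tnfrsf22 had 0.871, 0.825 and 2.50 CPM in WT and 10.8, 16.1 and 15.8 in INSL3-KI (log2 fold change 3.35, SE 0.49, edgeR adjusted p = 0.00134), 4.11 without WT replicate 3 and 1.03 with the Sertoli scaling. Tnfsf12 had 2.11, 1.65 and 4.58 CPM in WT and 10.2, 16.6 and 17.5 in INSL3-KI (log2 fold change 2.43, SE 0.45, edgeR adjusted p = 0.0034), 3.02 without WT replicate 3 and 0.090 with the Sertoli scaling. Tnfsfm13 had 3.90, 3.90 and 4.77 CPM in WT and 11.8, 18.6 and 17.9 in INSL3-KI (log2 fold change 1.98, SE 0.24, edgeR adjusted p = 0.000671), and -0.39 with the Sertoli scaling. All INSL3-KI libraries lay above all WT libraries for these 3.

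The receptors showed the same split of scales at P40. Tnfrsf1a had 37.4, 36.2 and 47.0 CPM in WT and 102, 137 and 138 in INSL3-KI (log2 fold change 1.68, SE 0.19, edgeR adjusted p = 0.000594), and -0.67 with the Sertoli scaling. Tnfrsf1b had 3.32, 2.81 and 4.58 CPM in WT and 14.1, 14.2 and 17.5 in INSL3-KI (log2 fold change 2.12, SE 0.24, edgeR adjusted p = 0.000534), and -0.19 with the Sertoli scaling. Neither receptor's groups overlapped. Tnfrsf25 had 0.249, 0.225 and 0.512 CPM in WT and 1.59, 1.02 and 1.93 in INSL3-KI (log2 fold change 2.19, SE 0.46, edgeR adjusted p = 0.00554). For the decoy receptor Tnfrsf11b the values were 0.373, 0.375 and 0.704 in WT and 1.93, 2.23 and 1.57 in INSL3-KI (log2 fold change 1.99, SE 0.36, edgeR adjusted p = 0.00325). Both again separated the groups, and with the Sertoli scaling they were at -0.078 and -0.30.

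RANK and Tnfrsf21 were among the other receptors called higher. Tnfrsf11a had 0.954, 1.2 and 1.02 CPM in WT and 2.95, 3.59 and 3.57 in INSL3-KI (log2 fold change 1.70, SE 0.23, edgeR adjusted p = 0.000965), and Tnfrsf21 had 11.1, 8.48 and 19.7 in WT and 31.1, 48.1 and 44.3 in INSL3-KI (log2 fold change 1.68, SE 0.36, edgeR adjusted p = 0.00607). Tnfrsf23 and Tnfrsf19 were called higher by 1.59 and 1.42 on the log2 scale. With the Sertoli scaling these 4 reversed to -0.64, -0.65, -0.79 and -0.89. The calls of Tnfrsf11b, Tnfrsf21, Tnfrsf23, Tnfrsf25, Tnfsf12 and Tnfrsf9 were each lost without WT replicate 1 and without WT replicate 2. Without INSL3-KI replicate 2 those of Tnfrsf11b, Tnfrsf21, Tnfrsf23, Tnfsf12 and Tnfrsf9 were lost, and without INSL3-KI replicate 3 those of Tnfrsf21, Tnfrsf23, Tnfrsf25, Tnfsf12 and Tnfrsf9. Tnfrsf12a had 1.74, 0.825 and 6.34 CPM in WT and 10.5, 17.9 and 16.5 in INSL3-KI without overlap, and was not called (log2 fold change 2.34, SE 0.72, edgeR adjusted p = 0.0244).

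**Figure D4:**
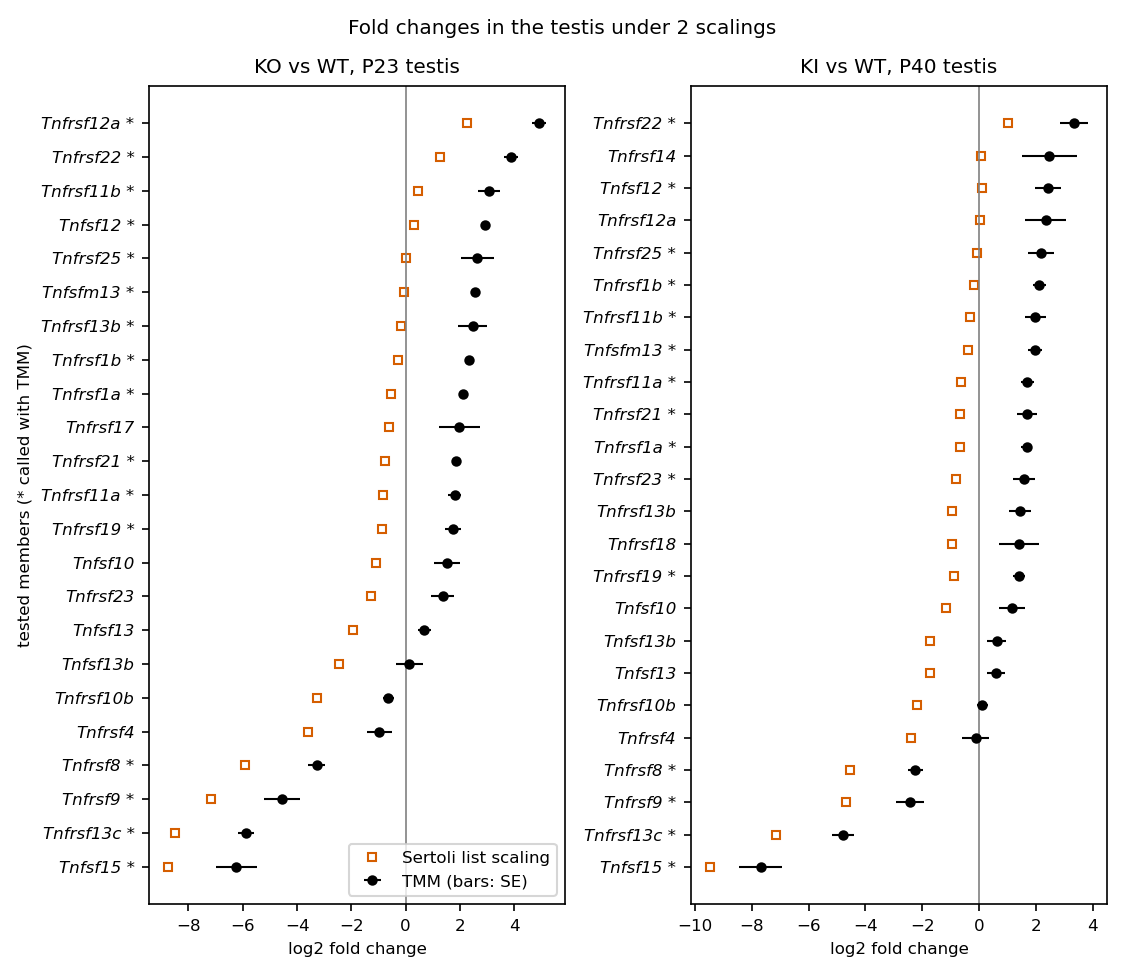
Log2 fold changes of all tested members in P23 INSL3-KO and P40 INSL3-KI testis against WT, with TMM (black points, bars are SE) and with libraries scaled on 15 Sertoli genes (orange squares). The 4 members lowest in each panel are lower under both scalings, and of the higher ones Tnfrsf12a and Tnfrsf22 at P23 remain above a log2 fold change of 1 with the Sertoli scaling and Tnfrsf22 at P40 reaches 1.03.

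The lists of other cell types moved strongly between these groups, and their part in the members' changes was not tested. Their calls and levels are on the TMM scale, from which the Sertoli scaling moves all genes down as given above. All 15 Sertoli genes were called higher in P23 INSL3-KO (summed 15020 to 15220 CPM against 3122 to 3208 in WT) and in P40 INSL3-KI (7948 to 11460 against 2431 to 2786). All 9 spermatid genes were called lower in both (14.3 to 17.2 against 16340 to 18270 CPM at P23, and 12.7 to 50.9 against 10070 to 12590 at P40). The 9 spermatocyte genes were all called lower in P23 INSL3-KO (231 to 245 against 8412 to 8601 CPM), and none was called in P40 INSL3-KI (468 to 2804 against 5424 to 6132 CPM). Of 12 macrophage genes, 10 were called higher and 1 lower (Aif1) in each, with summed levels of 1263 to 1326 against 565 to 632 CPM at P23 and 558 to 799 against 374 to 399 CPM at P40. Beside Tnfrsf13c, known from B cells, the B and plasma cell list summed to 11.0 to 12.2 CPM in WT and 3.10 to 3.91 in INSL3-KO at P23, of which Pax5 was called lower and Cd79a higher. At P40 it summed to 13.4 to 18.0 CPM in WT and 1.98 to 2.77 in INSL3-KI, with Pax5 called lower. In P23 INSL3-KI, 4 of 15 Sertoli genes were called higher (3220 to 7780 CPM), 7 of 9 spermatid genes lower (88.3 to 918.1 CPM) and, of the B and plasma cell list (1.93 to 4.53 CPM), Pax5 and Jchain lower.

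At P8, before spermatids appear, the testis held few calls. In INSL3-KI, 1 of 24 tested members was called, 4.17% against 6.29% of all genes tested, 3.03% higher and 3.25% lower. It was Tnfrsf13c, with 0.0974, 0.243 and 0.227 CPM in WT, 1.27, 1.47 and 1.52 in INSL3-KI and 0.994, 1.497 and 0.591 in the libraries labelled INSL3-KO. Every library of both lay above WT (INSL3-KI log2 fold change 2.90, SE 0.46, edgeR adjusted p = 0.00703, libraries labelled INSL3-KO log2 fold change 2.41, SE 0.55, edgeR adjusted p = 0.00806). This is the opposite direction from P23 and P40, and each call was lost without any 1 of the 6 libraries. Of 9 spermatocyte genes, 6 were called higher at P8 in INSL3-KI and 6 in the libraries labelled INSL3-KO, with summed levels of 591 to 2226 CPM in INSL3-KI and 799.9 to 810.8 in those labelled INSL3-KO against 65.3 to 131.1 in WT, and the part of this in the change of Tnfrsf13c was not tested. Of 8 Leydig genes, Insl3 itself among them, 5 were called lower in INSL3-KI and 4 in the libraries labelled INSL3-KO (315 to 366 and 560 to 575 CPM against 856 to 1024 in WT). Of 7 endothelial genes 1 and 3 were called lower (97.6 to 158.6 and 129 to 133 against 221 to 383 CPM), and of 6 fibroblast and mesenchyme genes 1 and 2 (2103 to 3457 and 3413 to 3515 against 4632 to 14770 CPM).

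The libraries labelled INSL3-KO at P8 had 2 calls among 25 tested members, 8% against 13.8% of all genes tested, 5.44% higher and 8.37% lower, with Tnfrsf14 lower beside Tnfrsf13c higher. For Tnfrsf1a every INSL3-KI library and every library labelled INSL3-KO lay below WT at P8 with no call, at 103, 108 and 121 CPM in WT, 88.3, 70.0 and 89.1 in INSL3-KI (log2 fold change -0.41, SE 0.12, edgeR adjusted p = 0.044) and 89.0, 87.5 and 84.4 in those labelled INSL3-KO (log2 fold change -0.35, SE 0.0753, edgeR adjusted p = 0.00616). Tnfrsf1b had 3.38, 3.79 and 7.56 CPM in WT, 4.94, 4.10 and 4.43 in INSL3-KI and 4.62, 3.57 and 4.97 in those labelled INSL3-KO, with overlap of all groups. The part of the Leydig, endothelial and fibroblast lists in these values was not tested.

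The difference between INSL3-KI and WT testis itself differed between P40 and P8 in 11 of 26 tested members (9 more positive and 2 more negative at P40), 42.3% against 45.6% of all genes tested, 23.2% higher and 22.5% lower by edgeR's interaction test. The 4 largest were Tnfrsf13c (difference of log2 fold changes -7.76 ± 0.60, ± SE), Tnfrsf22 (4.20 ± 0.57), Tnfsf12 (3.09 ± 0.55) and Tnfrsf23 (2.97 ± 0.62). At P8, Tnfrsf22 had 4.02, 3.63 and 4.84 CPM in WT and 2.30, 1.79 and 2.46 in INSL3-KI, with the P40 values above. At the same age Tnfsf12 had 12.8, 14.6 and 19.7 CPM in WT and 11.7, 7.06 and 9.23 in INSL3-KI. The mean of INSL3-KI lay below that of WT at P8 and above it at P40 for both on the TMM scale. For Tnfrsf23 the P8 values were 0.999, 1.33 and 2.36 CPM in WT and 0.380, 0.646 and 0.647 in INSL3-KI, and the P40 values were 0.788, 0.600 and 0.416 in WT and 1.24, 2.01 and 1.999 in INSL3-KI, with no overlap at either age.

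Tnfrsf14 (HVEM), the receptor of the ligand Tnfsf14, had few counts throughout 1 of the tables. Its calls at P8 lie across the tables, where genotype and table cannot be told apart. It had at most 6 counts in any of the 12 libraries of the table that holds INSL3-KO (median 0), and a median of 31 counts over the 27 libraries of the other table. In P8 gubernaculum its counts were 26, 37 and 66 in WT, 45, 40 and 43 in INSL3-KI and 4, 0 and 0 in INSL3-KO (log2 fold change -5.24, SE 1.02, edgeR adjusted p = 0.00296). That call was lost without WT replicate 2 or 3 or INSL3-KO replicate 2 or 3, and the log2 fold change lay between -8.64 (without INSL3-KO replicate 1, the library with 4 counts) and -4.65 when 1 library was left out. In P8 testis they were 15, 22 and 41 in WT, 31, 16 and 50 in INSL3-KI and 0, 0 and 0 in the libraries labelled INSL3-KO. The last were at least 9.38-fold below WT (edgeR adjusted p = 0.00307, and 0.0135 without WT replicate 2) and at least 11.2-fold below INSL3-KI (edgeR adjusted p = 0.00608), the 1 call of 25 between INSL3-KI and these libraries (4% against 3.92% of all genes tested, 2.76% higher and 1.16% lower). Within tables, P23 testis had 0, 3 and 0 counts in WT and 4, 6 and 2 in INSL3-KO, and P40 testis 0, 13 and 3 in WT and 20, 58 and 54 in INSL3-KI. The WT testis had few counts at both of these ages, in either table. The median implied lengths of the gene in the tables had a ratio of 0.992.

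**Figure D5:**
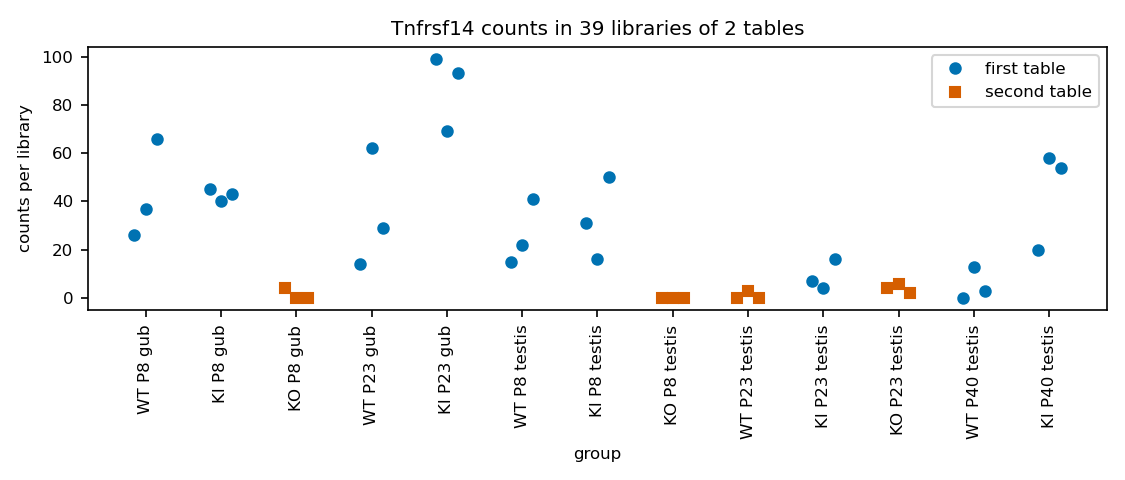
Raw counts of Tnfrsf14 in each of 39 libraries by group (3 points per group), with the table marked by color and shape. The 12 libraries of the second table have 0 to 6 counts, and those of the first have 0 to 99.

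The genes downstream of these receptors were counted as lists in the same fits. Of 25 adaptors and kinases, 11 were called higher and 1 lower in P23 INSL3-KO testis and 12 and 0 in P40 INSL3-KI, against 64.4% and 47.7% of all genes called in either direction, with median log2 fold changes of 0.82 and 0.97 (all genes 0.056 and 0.093) on the TMM scale, from which the Sertoli scaling moves all genes down as given above. They included Casp8, the initiator caspase of death receptors (2.78 and 2.13), and Birc3, an inhibitor of apoptosis (2.70 and 2.03). Of 12 NF-kB genes, 7 were higher and 1 lower in each. Bcl3 was higher (2.52 and 1.96), as was Nfkbia, which encodes an inhibitor of NF-kB (2.48 and 2.03), and Nfkbib, which encodes another, was lower (-2.37 and -2.06). Of 30 known TNF target genes, 23 were tested, with 15 higher and 2 lower in P23 INSL3-KO and 11 and 2 in P40 INSL3-KI, Edn1 among the higher (4.26 and 2.73) and Sele among the lower (-4.75 and -4.32).

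In P23 INSL3-KI testis the same lists had 5 adaptors higher and 2 lower of 25, 3 NF-kB genes higher and 1 lower of 12, and 4 target genes higher and 4 lower of 21, where 20.6% of all genes were called. In P8 testis at most 2 genes of any of these lists were called higher and at most 5 lower, where 6.29% of all genes were called in INSL3-KI and 13.8% in the libraries labelled INSL3-KO. In P8 gubernaculum, INSL3-KI had 3 adaptors higher and 1 lower of 25 and 6 target genes higher and 5 lower of 24, and INSL3-KO had 6 and 3 of 25 and 7 and 6 of 26, where 24.1% of all genes were called in INSL3-KI and 30.7% in INSL3-KO. Traf1 was higher there in both (3.12 in INSL3-KI and 2.41 in INSL3-KO, log2 fold changes) and Rel lower in both (-1.82 and -4.92). The target gene Ccl5, which encodes a chemokine, was also called higher in both. It had no count in any WT library there, so no fold is given for it.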

How the data were processed

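Whole gubernaculum and testis of male mice were profiled by mRNA sequencing (paired-end, Illumina) in 39 libraries, 13 groups of 3 biological replicates by the labels. The authors deposited 2 tables with a raw count and an FPKM value of each gene and library. Counts were used for tests and FPKM for levels between genes. Reads were aligned with HISAT2 to GRCm38 per the submitters' processing notes, and the annotation, the counting program and strand are not given in the sources used here. The tables were joined on Ensembl identifier. Shared genes held between 94.2 and 97.9% of each library's counts.

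Each comparison was fitted on its own libraries with edgeR 4.0.16 in R 4.3.3 (TMM, filterByExpr with a minimum count of 10 and total of 15, quasi-likelihood F test, Benjamini-Hochberg adjustment over all genes tested), the design following the thresholds of the study, which used DESeq2. A gene was called at adjusted p under 0.01 and at least 2-fold. SE is the absolute log2 fold change divided by the root of F. A fold against a group at 3 counts or fewer per library was given as a bound from that floor, for counting error only. Promoter sequences came from RefSeq. The edgeR and DESeq2 fits were also run on counts simulated with a small set of genes changed equally often up and down. That setting lacks the broad shifts between testis groups, so it says nothing on the choice of scaling.

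The members and lists were chosen with earlier results of these data known. Values by library were given for Tnf, Tnfrsf1a and Tnfrsf1b, for called members against WT (12 at most, by fold), for the 4 largest calls elsewhere and for the 3 highest FPKM in WT tissues, and at most 4 genes per other list were named. Every pair of replicates differed by more than sampling noise (variance over noise 4.17 to 869). Alternatives were DESeq2 1.42.0, library size alone, no filter, a replicate block, 1 fit per tissue, scaling to the Sertoli list and leaving out each library.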

Additional observations from a re-analysis of the deposited data

Results flagged for a closer look

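The difference between INSL3-KI and WT testis was itself different at P40 and at P8 for 11 of 26 tested members. That is 42.3%, against 45.6% of all genes tested, by edgeR's interaction test over 12 libraries. The values are differences of log2 fold changes, P40 minus P8, on the TMM scale. Tnfrsf13c had -7.76 and Tnfrsf8 -2.41, both more negative at P40. Tnfrsf22 had 4.20, Tnfsf12 3.09, Tnfrsf23 2.97, Tnfrsf25 2.83, Tnfsfm13 2.46, Tnfrsf11b 2.39, Tnfrsf1b 2.16, Tnfrsf1a 2.01 and Tnfrsf21 1.87, all more positive at P40. The edgeR adjusted p-values lay between 8.14e-06 and 0.00317. The Sertoli scaling, which was not applied to this test, moves the median of all genes to -2.22 at P40 and to 0.091 at P8.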

How the results depend on the processing

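The log2 fold changes followed here were those of members that edgeR called against WT, and of Tnf, Tnfrsf1a and Tnfrsf1b where tested. Other members that were called only under an alternative were not among them. Of these 62 values, DESeq2 left 61 with their direction and side of the threshold, library size alone 57 and the replicate block 52. Of 372 values with 1 library left out, 307 did so, and of 43 with the Sertoli scaling 18. DESeq2 called 4 members in P23 INSL3-KI gubernaculum, 6 in P23 INSL3-KI testis, 2 between INSL3-KI and the libraries labelled INSL3-KO in P8 testis, 10 between the mutants in P23 testis, 3 between ages of WT gubernaculum and 1 in the difference of gubernaculum effects. One fit per tissue called 4 in P23 INSL3-KI gubernaculum, 2 in P8 INSL3-KI testis and 9 in P23 INSL3-KI testis. The Sertoli scaling called 0 in P8 INSL3-KI, 1 in P8 libraries labelled INSL3-KO, 10 in P23 INSL3-KO and 8 in P40 INSL3-KI testis. The shares of all genes called under these alternatives are not given here.

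In no comparison did all 3 same-numbered pairs of replicates correlate above 0.1 in their deviations (-0.188 to 0.414), so the numbers were not taken to pair the samples. Only in P8 testis labelled INSL3-KO against WT did all 3 libraries of 1 group correlate best with their own number in the other. The replicate block called 0 members in P8 INSL3-KI testis, 0 in P8 testis labelled INSL3-KO, 1 in P23 INSL3-KI testis, 0 between INSL3-KI and the libraries labelled INSL3-KO in P8 testis and 0 between ages of WT gubernaculum. With the block, Tnfrsf1a in P23 INSL3-KI gubernaculum had -0.081.

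Log2 fold changes reversed with the Sertoli scaling as follows. In P23 INSL3-KI testis Tnfrsf1a had -0.16 and Tnfrsf1b -0.18. In P23 INSL3-KO they were Tnfrsf11a -0.83, Tnfrsf13b -0.16, Tnfrsf19 -0.87, Tnfrsf1a -0.53, Tnfrsf1b -0.30, Tnfrsf21 -0.77 and Tnfsfm13 -0.056. In P40 INSL3-KI they were Tnfrsf11a -0.64, Tnfrsf11b -0.30, Tnfrsf19 -0.89, Tnfrsf1a -0.67, Tnfrsf1b -0.19, Tnfrsf21 -0.65, Tnfrsf23 -0.79, Tnfrsf25 -0.078 and Tnfsfm13 -0.39. The scaling's own construction lowers all genes in these comparisons. With library size alone, Tnfrsf1b had 0.27 in P8 INSL3-KI gubernaculum and 0.000375 in P8 INSL3-KI testis, and Tnfrsf1a 0.028 in P8 INSL3-KO gubernaculum. The cause of the other changes was not tested.

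Leaving out 1 library gave 5 to 6 calls in P8 INSL3-KI and 4 to 6 in P8 INSL3-KO gubernaculum, 0 to 2 in P23 INSL3-KI gubernaculum, 0 in P8 INSL3-KI and 0 to 1 in P8 testis labelled INSL3-KO, 0 to 4 in P23 INSL3-KI, 16 to 18 in P23 INSL3-KO and 9 to 17 in P40 INSL3-KI testis. Between INSL3-KI and libraries labelled INSL3-KO it gave 3 to 5 in P8 gubernaculum, 0 to 1 in P8 testis and 0 to 13 in P23 testis. It gave 8 to 12 between ages of WT testis, 0 between ages of WT gubernaculum, 4 to 6 between tissues, and 11 to 14 and 0 to 1 in the differences of effects in testis and gubernaculum. Log2 fold changes that reversed ranged from -0.18 to 0.89 for Tnf, and from -0.20 to 0.048 for Tnfrsf1b, in P8 INSL3-KI gubernaculum, from -0.52 to 0.21 for Tnfrsf1a in P23 INSL3-KI gubernaculum, and for Tnfrsf1b from -0.36 to 0.36 in P8 INSL3-KI and from -0.34 to 0.29 in P8 testis labelled INSL3-KO. Low counts, such as those of Tnf with at most 44 in a library, limit what could be tested.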

Other observations

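Members of the superfamily that carry other symbols were counted as lists in the same fits, with log2 fold changes from edgeR and calls as above. In P8 gubernaculum, of 7 such receptors tested in INSL3-KI, Edar, the ectodysplasin receptor of skin appendages, was higher (4.31), Cd40 was higher (1.75), and Eda2r (-2.98) and Relt (-2.07) were lower, with 3 called higher and 2 lower in all (24.1% of all genes were called). In INSL3-KO, 1 was higher and 3 were lower of 8, Fas, a death receptor, at 1.67, Eda2r at -1.97, Ngfr at -1.81 and Ltbr at -1.07 (30.7% of all genes). The ligand Eda was lower in both (-1.71 and -1.88), and Ltb was higher in INSL3-KI (2.19). At P23, Eda2r was the 1 receptor of 8 called in INSL3-KI gubernaculum (-4.48), against 2.57% of all genes.

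In testis, values are on the TMM scale, from which the Sertoli scaling moves the median of all genes to -2.58 in P23 INSL3-KO and -2.22 in P40 INSL3-KI. Ngfr was lower in P23 INSL3-KO (-5.58) and P40 INSL3-KI (-4.00), as was Edar (-2.25 and -2.14). Eda2r was higher in both (3.05 and 3.01), as was its family's ligand Eda (2.70 and 2.26). Fas was called higher (2.73) and its ligand Fasl lower (-4.16) in P23 INSL3-KO.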
